A study of Homo sapiens with 132 samples.

Results

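The genes of antigen presentation by major histocompatibility complex (MHC) class I were followed with CD274, the gene of the checkpoint ligand PD-L1. The 9 genes are HLA-B, HLA-C, B2M, TAP1, TAP2, PSMB8, PSMB9, NLRC5 and CD274. They were chosen by name, through the Ensembl identifier of each symbol, and not by a measured value. They are 9 of the 65217 identifiers in the deposited count tables. RNA of 4 established gastric cancer cell lines was sequenced, with 3 replicates for each of 44 conditions. All lines (MKN1 and Hs746T with 42 libraries each, MKN7 and NCI-N87 with 24 each) were harvested at 4 h and at 24 h without treatment, after trastuzumab at 5 μg/ml, after 0.5 μM of afatinib and after the pair of drugs (trastuzumab + afatinib). In the lines MKN1 and Hs746T, 3 further treatments were EGF at 5 ng/ml, cetuximab at 1 μg/ml, and EGF together with cetuximab. Cetuximab is an antibody against EGFR, trastuzumab is an antibody against HER2, and afatinib is an irreversible inhibitor of the EGFR and HER2 kinases. The study describes MKN1 cells as cetuximab responder, NCI-N87 cells as trastuzumab responder, and MKN1, MKN7 and NCI-N87 cells as afatinib responder, whereas Hs746T cells respond to neither cetuximab nor afatinib. All groups were compared with untreated cells, and solvent controls were not analysed here. The study names DMSO as the solvent control of afatinib, so that drug and solvent cannot be told apart here. It refers to earlier western blots with minor effects of DMSO beside those of afatinib, and it included DMSO when selected genes were measured by quantitative PCR. Its quantitative PCR also included an assay for CD274, whose values were not used here. Each line stands for 1 tumour. Hs746T cells were grown in DMEM and the other lines in RPMI medium, so that line and medium cannot be told apart. The study's statistics describe its data in general as means over independent experiments. The labels of the libraries give replicate numbers and no culture, so the p-values are taken to measure the spread between these libraries.

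Almost every nucleated cell shows peptides of its own proteins to CD8+ T cells on MHC class I. The proteasome cuts proteins into peptides, and its immunoproteasome form carries the catalytic subunits PSMB8 and PSMB9 in place of constitutive ones. The transporter made of TAP1 and TAP2 carries the peptides into the endoplasmic reticulum, where they are loaded onto a heavy chain (HLA-B, HLA-C) bound to the light chain β2-microglobulin (B2M). NLRC5 is the transactivator of these class I genes. CD274 on the cell surface binds PD-1 and restrains the T cell. Interferons raise all of these genes, and EGFR signaling through the MAPK pathway is known to raise CD274 in epithelial tumours.

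Each library held 25832557 to 69434151 counts. The epithelial markers (EPCAM, KRT8, KRT18, KRT19, CDH1, CLDN4) had a median above 1 CPM in 5 of 6 cases in Hs746T cells and in 6 of 6 cases in each other line. CPM are counts scaled to equal library size, normalized by TMM over all libraries. The adhesion gene CDH1 had a mean of 260 CPM in untreated MKN7 and 268 in NCI-N87 cells, but 2.02 in MKN1 and 0.821 in Hs746T cells. Hs746T cells stood apart by the summed fibroblast markers (COL1A1, COL1A2, DCN, PDGFRB), at 485 to 892 CPM per library against at most 41.5 in the other lines. Their summed epithelial markers were at 717 to 1040 CPM per library, against at least 4470 in the others. The summed mesenchymal markers (VIM, ZEB1, FN1) were at 3020 to 5400 CPM in Hs746T cells and at most 2540 in the others. The 6 leukocyte markers summed to at most 9.75 CPM in any library, CD14 being the largest in MKN1 cells (mean of 4.73 CPM untreated) and LYZ in NCI-N87 cells (3.94). The common leukocyte gene PTPRC was at most 0.664 CPM in untreated cells, and CD68 was listed at 0 in every library.

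HLA-B (ENSG00000234745), TAP1 (ENSG00000168394) and TAP2 (ENSG00000204267) were listed at 0 in every library. The same held for 1970 of the 19674 protein-coding identifiers. HLA-B shared 35 of its 3051 exonic bases with HLA-C in GENCODE release 29. TAP2 shared 2064 of 6390 with AL669918.1 on the same strand, which held 6771 counts in all. TAP1 shared 456 of 4805 with PSMB8-AS1 on the other strand, which was also listed at 0. Whether these overlaps set the zeros was not tested, and no level or fold change is given for HLA-B, TAP1 and TAP2. The other 6 genes had counts in every library and passed the filter on low counts in every line. HLA-C (ENSG00000204525) lies on chromosome 6 of GRCh38 from 31268749 to 31272130, PSMB8 (ENSG00000204264) from 32840717 to 32844703 and PSMB9 (ENSG00000240065) from 32844136 to 32859585. PSMB8 and PSMB9 lie on opposite strands and share 139 exonic bases. The libraries are directional, but the strand setting of the counting is not given in the sources used here, so these bases could be counted for either gene. B2M (ENSG00000166710) lies on chromosome 15 from 44711487 to 44718877, NLRC5 (ENSG00000140853) on chromosome 16 from 56989485 to 57083531 and CD274 (ENSG00000120217) on chromosome 9 from 5450503 to 5470566. Class I heavy chains differ between people, and a line's own HLA-C allele may match the reference to a different degree, which was not tested.

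The promoters of 4 genes are shown because these genes changed in the same treatment, HLA-C, B2M and PSMB8 upwards and CD274 downwards. PSMB9 also rose, and it is not printed. Its window held 1 CCAAT box and none of the other motifs, and the printed HLA-C window likewise held only CCAAT boxes. The sequences are RefSeq windows of GRCh38.p14, from 250 bases before to 50 bases after a transcript start, written 5′ to 3′ on the strand of the gene. A window was found for 8 of the 9 genes, and PSMB8 has a window for each of 2 starts, of which the one with matches is shown. The other PSMB8 window held no match to any motif, so this choice followed the matches. Capitals mark matches, on either strand, to an interferon-stimulated response element (ISRE, GAAA, any pair of bases, GAAA), a gamma-activated site (GAS, TTCNNNGAA), an NF-κB motif (GGGNNTTCC) or a CCAAT box.
CD274, chr9:5450292-5450591, + strand: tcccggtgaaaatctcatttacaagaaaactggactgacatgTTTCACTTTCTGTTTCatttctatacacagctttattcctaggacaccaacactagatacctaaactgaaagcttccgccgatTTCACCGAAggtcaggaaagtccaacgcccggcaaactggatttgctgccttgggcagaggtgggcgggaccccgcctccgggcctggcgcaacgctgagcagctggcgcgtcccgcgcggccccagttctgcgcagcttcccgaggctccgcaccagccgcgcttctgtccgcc
B2M, chr15:44711267-44711566, + strand: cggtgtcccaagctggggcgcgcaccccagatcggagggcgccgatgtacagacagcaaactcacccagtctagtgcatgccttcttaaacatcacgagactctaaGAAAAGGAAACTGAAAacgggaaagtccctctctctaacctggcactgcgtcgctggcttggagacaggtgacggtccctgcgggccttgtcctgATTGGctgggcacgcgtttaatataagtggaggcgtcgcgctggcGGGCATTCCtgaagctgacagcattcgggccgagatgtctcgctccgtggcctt
PSMB8, chr6:32843998-32844297, − strand: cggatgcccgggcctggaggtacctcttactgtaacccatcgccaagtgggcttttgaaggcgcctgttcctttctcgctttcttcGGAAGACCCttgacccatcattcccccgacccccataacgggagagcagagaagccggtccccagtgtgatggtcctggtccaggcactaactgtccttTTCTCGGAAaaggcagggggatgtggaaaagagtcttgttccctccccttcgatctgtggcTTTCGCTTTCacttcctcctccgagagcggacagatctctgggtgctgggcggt
HLA-C, chr6:31272043-31272342, − strand: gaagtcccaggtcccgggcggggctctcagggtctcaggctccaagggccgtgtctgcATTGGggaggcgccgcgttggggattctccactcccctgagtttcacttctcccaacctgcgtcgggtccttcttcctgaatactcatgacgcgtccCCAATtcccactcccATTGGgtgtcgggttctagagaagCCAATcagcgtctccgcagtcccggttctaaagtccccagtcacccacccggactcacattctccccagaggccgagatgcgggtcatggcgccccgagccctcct
CD274 and B2M each held a pair of overlapping ISRE matches, and 3.57% of 35116 promoter windows held at least 1. In CD274 they lay from -208 to -193 relative to the start and in B2M from -144 to -129. The PSMB8 window shown held 1 ISRE match, which spans the start. CD274 and PSMB8 held 1 GAS match each (7.66% of windows). B2M and PSMB8 held 1 NF-κB match each (6.58%). HLA-C held 4 CCAAT boxes and B2M held 1 (34.6%). The AP-1 motif TGANTCA, found in 7.71% of windows, was in none of the 10 windows of these genes. A match describes the letters only.

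The untreated cells differed most in CD274. Its level was highest in Hs746T cells, where the 6 untreated libraries lay between 64.8 and 151 CPM with a median of 95.6. In MKN7 cells they lay between 33.4 and 61.3 CPM with a median of 53.9. In NCI-N87 cells the range was 7.80 to 10.7 CPM with a median of 9.55, and in MKN1 cells 0.396 to 1.22 CPM with a median of 0.768. The ranges of the 4 lines did not overlap, and the mean of Hs746T cells was 129-fold that of MKN1 cells. In a fit over all lines in edgeR's quasi-likelihood test, the neighbours in this order differed by a log2FC of -1.02 for MKN7 against Hs746T cells (SE 0.22, adjusted p = 1.57e-05), 2.41 for MKN7 against NCI-N87 cells (SE 0.23, adjusted p = 6.16e-17) and -3.57 for MKN1 against NCI-N87 cells (SE 0.28, adjusted p = 2.61e-21). In all, 31 of 36 tests of these 6 genes between lines passed the threshold of an adjusted p below 0.05, and 15 of them also had an absolute log2FC above 1. Of all 22832 genes in this fit, 71.9% were called between MKN1 and MKN7, 75.8% between MKN1 and NCI-N87, 76.5% between MKN1 and Hs746T, 73.3% between MKN7 and NCI-N87, 74.3% between MKN7 and Hs746T, and 76.3% between NCI-N87 and Hs746T cells. With the limit on log2FC these were, in the same order, 41.4%, 45.9%, 47.8%, 44.4%, 45.9% and 49.1%.

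**Figure D1:**
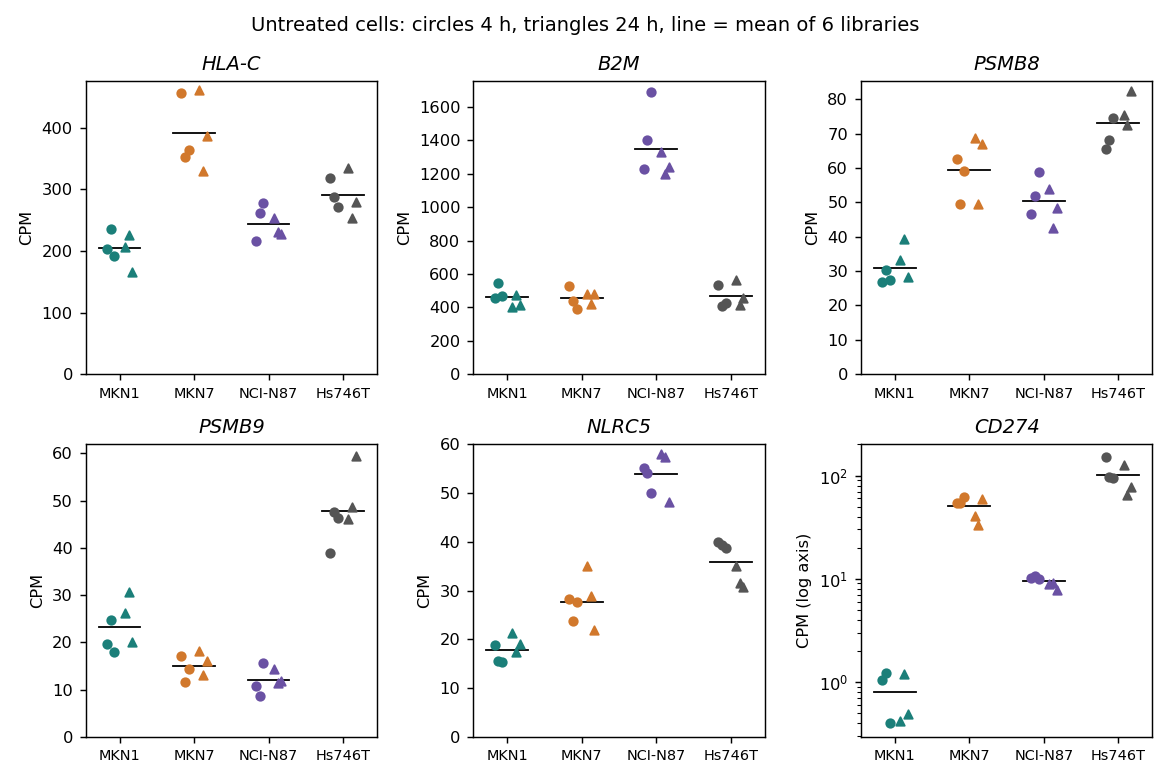
CPM of 6 genes in untreated cells of each line (points are libraries, circles 4 h and triangles 24 h, bars the mean of 6 libraries, the axis of CD274 is logarithmic). CD274 spans from 0.396 CPM in MKN1 to 151 CPM in Hs746T cells, and B2M lies between 1200 and 1690 CPM in NCI-N87 cells and at or under 563 CPM in the others.

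The chains of the class I molecule were ordered otherwise. B2M was highest in NCI-N87 cells, with 1200 to 1690 CPM and a median of 1290 in untreated libraries. The other lines had medians of 463 (MKN1), 458 (MKN7) and 439 CPM (Hs746T), and the 3 differences between them had log2FC between -0.03 and 0.01 (SE 0.10) and did not pass the threshold (smallest adjusted p = 0.818). HLA-C was highest in MKN7 cells, with 330 to 461 CPM, followed by Hs746T (254 to 335), NCI-N87 (216 to 277) and MKN1 cells (166 to 235). HLA-C in MKN7 differed from that in Hs746T cells by a log2FC of 0.43 (SE 0.10, adjusted p = 8.14e-05). The further neighbours differed by less, with -0.25 for NCI-N87 against Hs746T cells (adjusted p = 0.0205) and -0.26 for MKN1 against NCI-N87 cells (adjusted p = 0.0173). Neither passed the threshold without replicate 1 (-0.17, adjusted p = 0.214, and -0.23, adjusted p = 0.0866). The latter was also lost without replicate 3 (-0.11, adjusted p = 0.519) and by DESeq2 (-0.18, adjusted p = 0.105). Per kb of merged exons, the mean of untreated B2M was 75.7 CPM per kb in MKN1, 75.0 in MKN7, 76.5 in Hs746T and 222 in NCI-N87 cells, and that of HLA-C was 81.6, 156, 116 and 97.5. The order of the chains depends on the length used. The merged exons of all B2M transcripts span 6079 bases against 2507 for HLA-C, which lowers B2M per kb. In CPM, without length, the median of B2M was above that of HLA-C in every line, also in MKN7 cells with medians of 458 and 375.

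The immunoproteasome subunits were highest in Hs746T cells. PSMB9 had 39.0 to 59.5 CPM in untreated Hs746T libraries, 18.0 to 30.6 in MKN1, 11.7 to 18.2 in MKN7 and 8.72 to 15.6 in NCI-N87 cells. PSMB9 in MKN1 was below that in Hs746T cells (log2FC -1.04, SE 0.17, adjusted p = 4.08e-08) and above that in MKN7 cells (0.62, SE 0.17, adjusted p = 0.00079). Without replicate 2 the latter was at 0.38 (adjusted p = 0.0535). MKN7 and NCI-N87 cells differed by 0.31 (SE 0.17, adjusted p = 0.0936; 0.0152 with the replicate number as a block). PSMB8 followed the order Hs746T (65.4 to 82.5 CPM), MKN7 (49.5 to 68.8), NCI-N87 (42.6 to 58.9) and MKN1 (26.7 to 39.3). PSMB8 in MKN7 differed from that in Hs746T cells by -0.30 (SE 0.12, adjusted p = 0.0165), which did not hold without replicate 2 (-0.23, adjusted p = 0.0798) or replicate 3 (-0.28, adjusted p = 0.107). MKN7 and NCI-N87 cells differed in PSMB8 by 0.24 (SE 0.12, adjusted p = 0.0554; 0.0166 with the block). Per kb, PSMB8 stayed below PSMB5, the constitutive subunit whose place it takes, in every line. The means were 24.4 against 92.0 CPM per kb in Hs746T cells, 16.8 against 43.2 in NCI-N87, 19.8 against 107 in MKN7 and 10.3 against 61.4 in MKN1 cells. PSMB9 was below PSMB6, its constitutive counterpart, at 15.6 against 143 CPM per kb in Hs746T and 3.94 against 64.2 in NCI-N87 cells. The merged exons of PSMB8 and PSMB9 span 2997 and 3072 bases, against 1765 for PSMB5 and 1448 for PSMB6. This lowers PSMB8 and PSMB9 per kb. In CPM, without length, PSMB9 was also below PSMB6 in untreated cells at 4 h. The means were 44.3 against 206 in Hs746T, 11.7 against 94.7 in NCI-N87, 20.8 against 130 in MKN1 and 14.4 against 210 in MKN7 cells. NLRC5 was highest in NCI-N87 cells (48.2 to 58.0 CPM), followed by Hs746T (30.8 to 40.0), MKN7 (21.9 to 35.1) and MKN1 cells (15.3 to 21.2). Each step of the NLRC5 order passed the threshold, with log2FC of 0.59 for NCI-N87 against Hs746T (adjusted p = 7.85e-10), -0.38 for MKN7 against Hs746T (4.35e-05) and -0.63 for MKN1 against MKN7 cells (2.23e-10). Bulk RNA cannot tell fewer expressing cells from less RNA per cell.

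In MKN7 and NCI-N87 cells, the largest effect of afatinib on these genes at 4 h was on CD274. In untreated MKN7 cells, CD274 had 53.8, 53.9 and 61.3 CPM, and after 4 h afatinib treatment 20.6, 24.7 and 21.3 CPM. The groups did not overlap, and the log2FC was -1.38 (SE 0.20, adjusted p = 2.47e-05), a 2.60-fold fall. In untreated NCI-N87 cells, CD274 had 10.2, 10.7 and 10.0 CPM, and after 4 h afatinib 5.47, 5.20 and 6.16 CPM. Again the groups did not overlap (log2FC -0.87, SE 0.11, adjusted p = 8.06e-06). Among the 6 genes, CD274 was the only one called in either line at 4 h, where 22.2% and 18.2% of all genes tested were called, and 12.1% and 9.1% of all genes were lower. NLRC5 came next. It had 28.3, 23.7 and 27.6 CPM in untreated MKN7 cells and 35.0, 32.3 and 37.2 after 4 h afatinib, without overlap, but with an adjusted p of 0.09 (log2FC 0.35, SE 0.15). With the replicate number as a block, NLRC5 was called in MKN7 cells (0.36, adjusted p = 0.00672) and in NCI-N87 cells (0.17, adjusted p = 0.0317). HLA-C, B2M, PSMB8 and PSMB9 had log2FC between -0.01 and 0.14 at 4 h in these lines and were not called. In MKN1 cells, CD274 had 1.04, 1.22 and 0.396 CPM untreated and 0.653, 0.783 and 0.269 after 4 h afatinib. Every same-numbered library was lower, but the groups overlapped (log2FC -0.67, SE 0.60, adjusted p = 0.698), and these levels rest on 15 to 54 counts per library. None of the 6 genes was called in MKN1 cells at 4 h by edgeR, DESeq2 or the block, 0 had an unadjusted p below 0.05, and 3.68% of all genes were called.

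**Figure D2:**
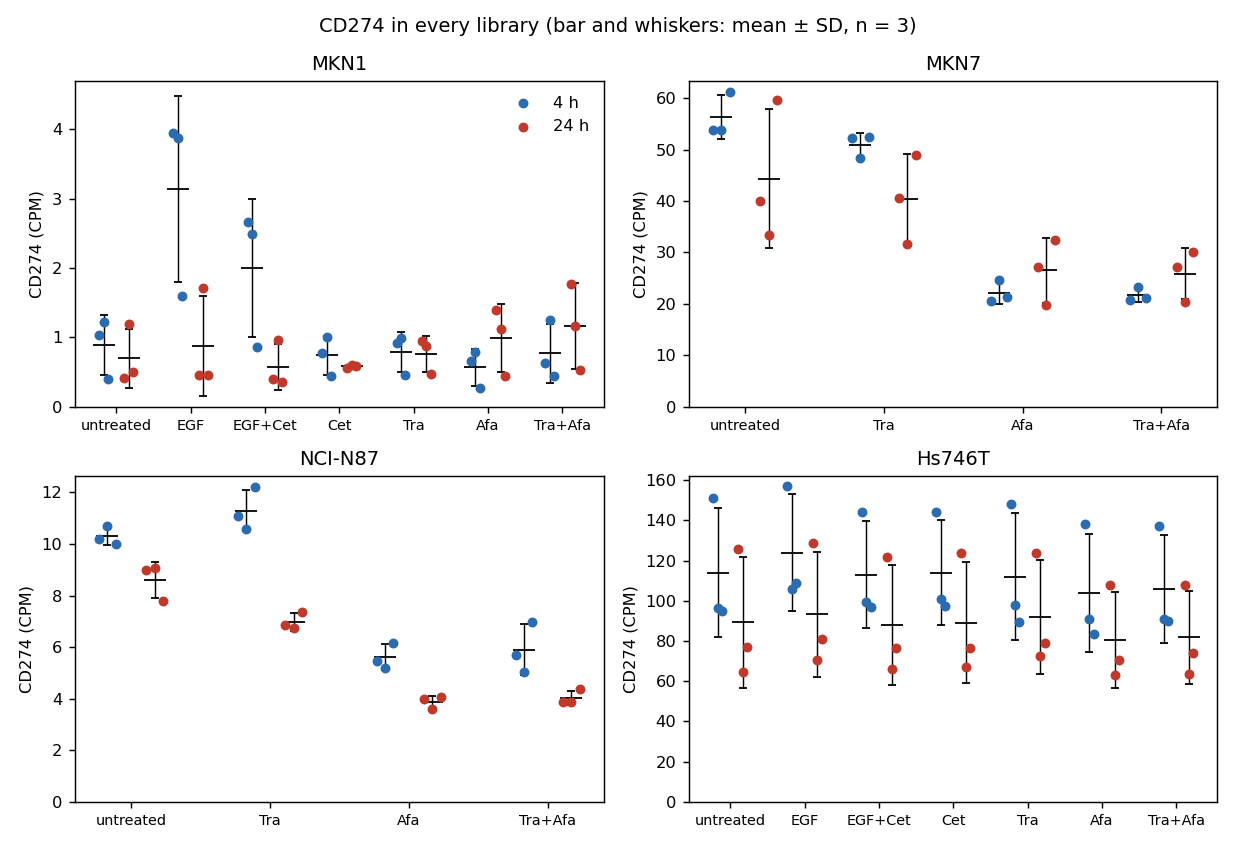
CD274 (CPM) in every library by treatment and time in the 4 lines (points are libraries, bars and whiskers the mean ± SD of 3, and each panel has its own axis). Afatinib libraries of MKN7 cells lie between 19.8 and 32.5 CPM, those of untreated cells between 33.4 and 61.3, and in NCI-N87 cells the ranges are 3.61 to 6.16 and 7.80 to 10.7.

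After 24 h afatinib treatment, CD274 was still lower in both lines. In MKN7 cells, the untreated libraries had 40.1, 33.4 and 59.6 CPM and the afatinib libraries 27.2, 19.8 and 32.5 CPM. The highest afatinib library lay just under the lowest untreated one, and the log2FC was -0.75 (SE 0.19, adjusted p = 0.00264). In NCI-N87 cells, CD274 fell from 8.99, 9.06 and 7.80 to 3.97, 3.61 and 4.06 CPM. This was a log2FC of -1.18 (SE 0.12, adjusted p = 1.18e-08) and a 2.27-fold fall. In MKN1 cells, CD274 had 0.415, 1.19 and 0.494 CPM untreated and 1.40, 1.12 and 0.447 CPM after afatinib, with overlapping groups (log2FC 0.49, SE 0.57, adjusted p = 0.585). In Hs746T cells, where CD274 was highest, it had 126, 64.8 and 77.1 CPM untreated and 108, 63.3 and 70.5 CPM after afatinib (log2FC -0.15, SE 0.30, adjusted p = 1.0). Replicate 1 of Hs746T cells was highest in CD274 in all 14 conditions.

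The 5 presentation genes went the other way at 24 h. In MKN7 cells, HLA-C, B2M, PSMB8, PSMB9 and NLRC5 rose and CD274 fell, so that all 6 were called, while 51.6% of all genes were called, 26.6% higher and 25.0% lower. In the line NCI-N87, the 5 genes also rose and CD274 fell, and 62.5% of all genes were called, 31.5% higher and 31.0% lower. With so many genes called, the count of 6 is a description of these genes and sets them apart from no others. The median log2FC of the 6 genes was 0.45 in MKN7 and 0.43 in NCI-N87 cells, beside 0.04 and 0.03 over all genes tested. Scaling by library size alone moved the median of all genes by 0.11 in MKN7 and 0.26 in NCI-N87 cells. The 6 genes kept their direction and call in both lines.

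NLRC5, the class I transactivator, rose most in MKN7 cells. Its levels were 35.1, 28.8 and 21.9 CPM in untreated and 75.3, 60.5 and 58.9 CPM in afatinib libraries at 24 h. The lowest afatinib library was well above the highest untreated one, and the log2FC was 1.17 (SE 0.15, adjusted p = 1.22e-06), a 2.26-fold rise. In NCI-N87 cells, which had more NLRC5 from the start, the levels were 58.0, 57.5 and 48.2 CPM untreated and 73.8, 82.5 and 67.2 CPM after afatinib (log2FC 0.42, SE 0.11, adjusted p = 0.00184). In MKN1 cells, NLRC5 had 21.2, 17.4 and 19.0 CPM untreated and 21.9, 21.8 and 22.4 CPM after afatinib. These groups did not overlap either, but the difference was small and not called (log2FC 0.18, SE 0.09, adjusted p = 0.133). In Hs746T cells NLRC5 had 35.0, 31.6 and 30.8 CPM untreated and 34.0, 32.2 and 26.6 CPM after afatinib (log2FC -0.08, SE 0.11).

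Of the class I chains, B2M rose in MKN7 cells from 482, 420 and 477 to 641, 633 and 659 CPM (log2FC 0.48, SE 0.09, adjusted p = 0.000178). The afatinib libraries lay close together and far above the untreated ones. In NCI-N87 cells B2M went from 1330, 1200 and 1240 to 1630, 1610 and 2040 CPM (log2FC 0.45, SE 0.16, adjusted p = 0.0204), and here replicate 3 was high. Leaving out replicates 1, 2 or 3 gave adjusted p of 0.0507, 0.0515 and 0.0611 for B2M in NCI-N87 cells. HLA-C had 254, 230 and 227 CPM in untreated NCI-N87 cells and 335, 310 and 348 CPM after afatinib, without overlap (log2FC 0.45, SE 0.10, adjusted p = 0.000605). In MKN7 cells HLA-C had 461, 330 and 386 CPM untreated and 557, 445 and 505 CPM after afatinib. These groups overlapped, although each same-numbered library was higher (log2FC 0.35, SE 0.13, adjusted p = 0.0317). HLA-C in MKN7 cells did not pass the threshold without replicate 2 (adjusted p = 0.0512), without replicate 3 (0.228) or with only the compared groups in the fit (0.0613).

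The immunoproteasome subunits rose less evenly. PSMB9 had 14.4, 11.3 and 11.8 CPM in untreated NCI-N87 cells and 22.6, 20.6 and 25.4 CPM after 24 h afatinib, which was the largest rise of the 6 genes in this line (log2FC 0.84, SE 0.23, adjusted p = 0.00304). In MKN7 cells PSMB9 had 18.2, 13.0 and 16.0 CPM untreated and 23.8, 19.4 and 30.6 CPM after afatinib (log2FC 0.64, SE 0.21, adjusted p = 0.0148). PSMB8 had 68.8, 49.5 and 67.0 CPM in untreated MKN7 cells and 81.5, 73.8 and 95.0 after afatinib (log2FC 0.43, SE 0.15, adjusted p = 0.0189). In NCI-N87 cells PSMB8 had 53.8, 42.6 and 48.3 CPM untreated and 62.8, 56.1 and 74.1 CPM after afatinib (log2FC 0.38, SE 0.16, adjusted p = 0.0407). None of these groups overlapped, and how many of all genes separated in this way was not counted. The calls of PSMB8 and PSMB9 did not hold without replicate 3. Without it, the adjusted p was 0.0996 and 0.16 in MKN7 and 0.279 and 0.0636 in NCI-N87 cells, and 3 of the 6 genes were called in each line. Without replicate 1, PSMB8 and PSMB9 were not called in MKN7 cells (0.0849 and 0.0646).

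**Figure D3:**
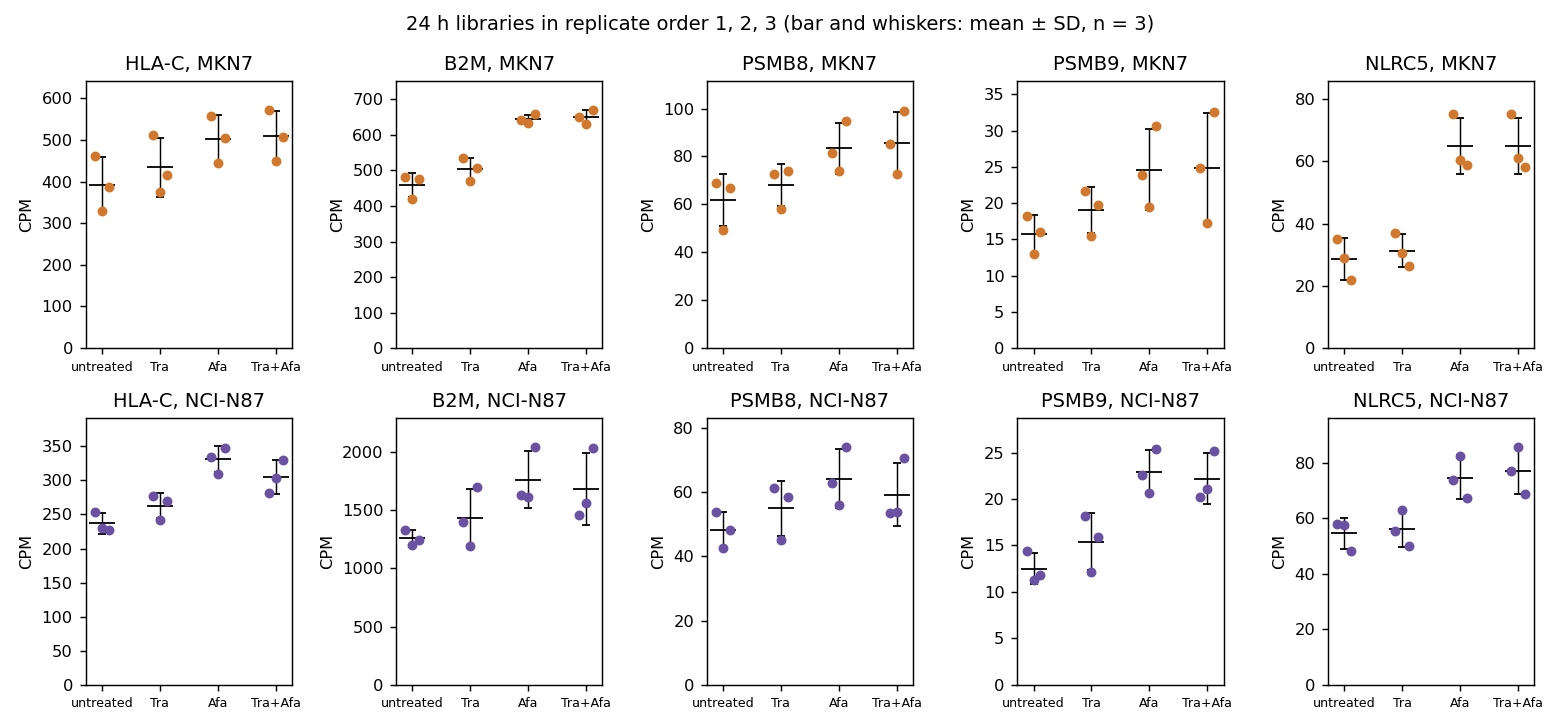
CPM of HLA-C, B2M, PSMB8, PSMB9 and NLRC5 in 24 h libraries of MKN7 and NCI-N87 cells (points are replicates 1, 2 and 3 from left to right, bars and whiskers the mean ± SD). NLRC5 in MKN7 cells shows the widest gap, with 58.9 to 75.3 CPM after afatinib against 21.9 to 35.1 untreated, while single libraries with afatinib lie below the highest untreated one for HLA-C in MKN7 cells (445 against 461) and, with the pair of drugs, for PSMB9 in MKN7 (17.3 against 18.2) and PSMB8 in NCI-N87 cells (53.5 against 53.8).

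In MKN1 cells after 24 h afatinib, none of the 6 genes was called by edgeR, where 25.6% of all genes were called, and DESeq2 called 0 as well. At an unadjusted p below 0.05 there were 4. With the replicate number as a block, HLA-C, B2M, PSMB8, PSMB9 and NLRC5 were called higher, where 7998 of 19815 genes were called. The lowest correlation of same-numbered pairs here was 0.09, under the limit of 0.1. The values below are those without the block. The log2FC of the 5 presentation genes were all above 0, from 0.18 for NLRC5 to 0.36 for PSMB9. B2M had 403, 475 and 415 CPM untreated and 490, 575 and 550 CPM after afatinib, without overlap (log2FC 0.30, SE 0.13, adjusted p = 0.0884). In Hs746T cells, 0 of the 6 genes were called at 4 h or 24 h by edgeR, DESeq2 or the block, and 0.0% of all genes tested were called at either time by edgeR. At 4 h, 1 of the 6 had an unadjusted p below 0.05 in Hs746T cells, and at 24 h there was none. The log2FC of Hs746T cells at 24 h lay between -0.15 for CD274 and 0.22 for PSMB9.

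**Figure D4:**
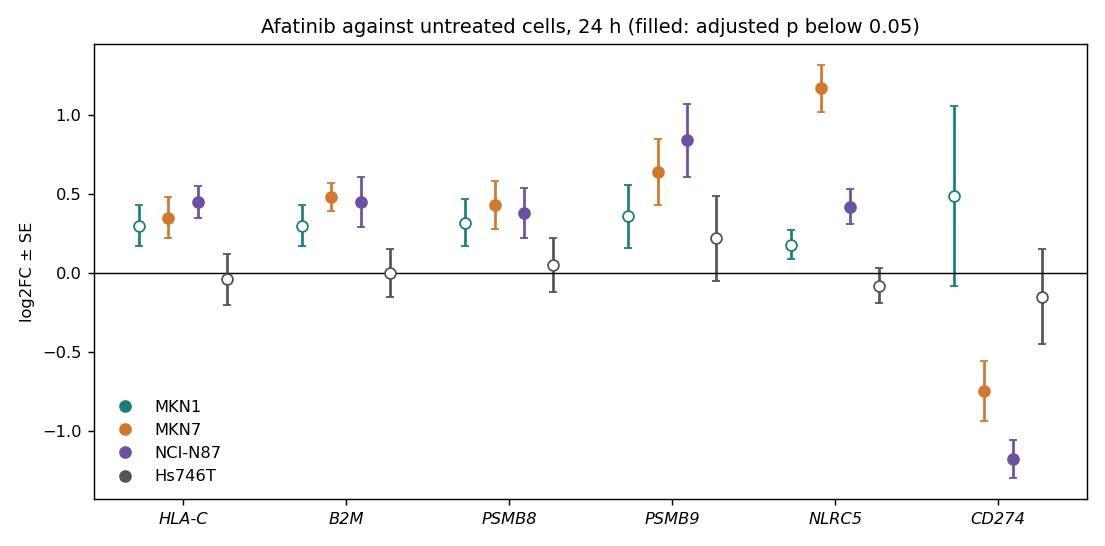
log2FC against untreated cells after 24 h afatinib for 6 genes in the 4 lines (points with whiskers are the estimate ± SE, filled points have an adjusted p below 0.05). MKN7 and NCI-N87 cells show 5 rises and a fall of CD274, from 1.17 for NLRC5 in MKN7 to -1.18 for CD274 in NCI-N87 cells, and no point of MKN1 or Hs746T cells is filled.

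The difference between lines in the effect of afatinib at 24 h was tested with interaction terms. Of 36 tests of the 6 genes over 6 pairs of lines, 6 passed the threshold, and 2 of these had an absolute size above 1. Of all genes, 7.61% passed for MKN1 and MKN7, 28.0% for MKN1 and NCI-N87, 4.41% for MKN1 and Hs746T, 21.4% for MKN7 and NCI-N87, 18.8% for MKN7 and Hs746T, and 35.1% for NCI-N87 and Hs746T cells. With the limit on size these were, in the same order, 3.6%, 13.4%, 1.34%, 9.64%, 7.02% and 19.4%. NLRC5 rose more in MKN7 than in MKN1 cells (difference in log2FC of -0.98 for MKN1 minus MKN7, SE 0.17, adjusted p = 1.3e-05). It also rose more in MKN7 than in NCI-N87 cells (0.73, SE 0.17, adjusted p = 0.000417) and more in MKN7 than in Hs746T cells (1.25, SE 0.17, adjusted p = 1.08e-08). NLRC5 in NCI-N87 differed from that in Hs746T cells by 0.52 (SE 0.17, adjusted p = 0.00963). For CD274, MKN1 differed from NCI-N87 cells (1.68, SE 0.57, adjusted p = 0.0181). The same CD274 difference of MKN1 from MKN7 cells was 1.27 (SE 0.55) and not called (adjusted p = 0.168), and that of NCI-N87 from Hs746T cells was -1.0 (SE 0.45, adjusted p = 0.0731). With the replicate number as a block, CD274 differed between MKN1 and MKN7 cells (1.27, adjusted p = 0.000784), between NCI-N87 and Hs746T cells (-1.02, adjusted p = 4.56e-06) and between MKN7 and Hs746T cells (-0.60, adjusted p = 0.00354, against 0.388 without it). For HLA-C, 1 of the 6 pairs of lines passed, NCI-N87 minus Hs746T cells (0.52, SE 0.20, adjusted p = 0.0363). It was lost without any of the replicates (adjusted p from 0.0513 to 0.172). The CD274 difference of MKN1 from NCI-N87 cells was lost without replicate 1 (1.06, adjusted p = 0.29), that of NLRC5 between MKN7 and NCI-N87 cells without replicate 3 (0.57, adjusted p = 0.0633), and that of NLRC5 between NCI-N87 and Hs746T cells without replicate 2 (0.0954) or 3 (0.0578). For B2M, PSMB8 and PSMB9, 0 of the pairs passed in edgeR. Called with the block were B2M for MKN7 and NCI-N87 against Hs746T cells (0.00733 and 0.00718) and PSMB9 for NCI-N87 against Hs746T cells (0.0115). A miss of the threshold does not show that the lines responded alike.

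Trastuzumab + afatinib was compared with the same untreated libraries as afatinib, so the values are set side by side only. In MKN7 cells at 24 h, all 6 genes were called, where 51.9% of all genes were called, with log2FC of 0.37 (HLA-C), 0.50 (B2M), 0.47 (PSMB8), 0.66 (PSMB9), 1.17 (NLRC5) and -0.78 (CD274). In NCI-N87 cells at 24 h, 5 were called against 64.7% of all genes, with 0.33 (HLA-C), 0.38 (B2M), 0.79 (PSMB9), 0.46 (NLRC5) and -1.13 (CD274), and PSMB8 at 0.26 was not called (adjusted p = 0.15). Several of these calls were lost when a replicate was left out. Without replicate 3, PSMB8, PSMB9 and HLA-C in MKN7 cells and PSMB9, HLA-C and B2M in NCI-N87 cells did not pass, with adjusted p from 0.0778 to 0.194. Without replicate 1, PSMB8 (0.0721) and PSMB9 (0.0665) in MKN7 and B2M (0.0586) in NCI-N87 cells were lost, and without replicate 2, HLA-C (0.0529) and B2M (0.086) in NCI-N87 cells. In MKN1 cells at 24 h, NLRC5 was called, with 21.2, 17.4 and 19.0 CPM untreated and 24.9, 24.7 and 24.4 CPM after the combination (log2FC 0.33, SE 0.09, adjusted p = 0.00488), where 26.8% of all genes were called. The other 5 genes were not called there, with log2FC of 0.12 for HLA-C, 0.17 for B2M, 0.06 for PSMB8, 0.13 for PSMB9 and 0.71 for CD274, beside 0.30, 0.30, 0.32, 0.36 and 0.49 after afatinib alone. At 4 h in these cells, the 6 genes had log2FC between -0.23 and 0.09 after the combination and none was called, with 3.95% of all genes called. The NLRC5 call at 24 h was lost without replicate 2 (adjusted p = 0.0555) and without replicate 3 (0.114). At 4 h, CD274 was at 20.7, 23.3 and 21.2 CPM in MKN7 (log2FC -1.40, adjusted p = 1.91e-05; 23.4% of all genes called) and at 5.68, 5.04 and 6.98 CPM in NCI-N87 cells (-0.81, adjusted p = 2.38e-05; 17.3%). NLRC5 was called in MKN7 cells at 4 h (0.41, SE 0.15, adjusted p = 0.0471), but not without replicate 1 (adjusted p = 0.0698) or replicate 2 (0.294). With the block, HLA-C was called in NCI-N87 cells at 4 h (0.25, adjusted p = 0.0331, against 0.0904 without it).

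EGF was given to MKN1 and Hs746T cells. In MKN1 cells, CD274 rose after 4 h EGF treatment, from 1.04, 1.22 and 0.396 CPM to 3.95, 3.88 and 1.59 CPM. All EGF libraries lay above all untreated ones, and replicate 3 was the lowest in both groups. The log2FC was 1.83 (SE 0.54, adjusted p = 0.0303), a 3.55-fold rise, and CD274 was the 1 gene called of the 6, where 6.82% of all genes were called, 4.37% of all genes being higher. The call of CD274 was lost without replicate 1 (1.76, adjusted p = 0.39) and without replicate 2 (1.94, adjusted p = 0.0963). With the replicate number as a block the adjusted p was 1.78e-05. After EGF + cetuximab for 4 h, CD274 stood between, at 2.66, 2.49 and 0.862 CPM, and the groups overlapped (log2FC 1.17, SE 0.55, adjusted p = 0.682; 0.0253 with the block). Of all genes 0.717% were called there. Against EGF alone, EGF + cetuximab gave a log2FC of -0.66 for CD274 (SE 0.50, adjusted p = 1.0), with 0.701% of all genes called. At 24 h the rise was not seen, with 0.457, 1.71 and 0.461 CPM of CD274 after EGF (log2FC 0.33, SE 0.59, adjusted p = 0.697). At that time 2 of the 6 genes were called and both were lower, where 35.8% of all genes were called and 18.5% were lower. PSMB9 had 26.3, 30.6 and 20.1 CPM untreated and 16.3, 23.5 and 12.2 CPM after 24 h EGF, with overlapping groups (log2FC -0.55, SE 0.20, adjusted p = 0.0325). NLRC5 went from 21.2, 17.4 and 19.0 to 17.3, 14.7 and 16.7 CPM, the highest EGF library lying just under the lowest untreated one (log2FC -0.22, SE 0.09, adjusted p = 0.0489). Both are near the threshold. Scaling by library size alone moved the median of all genes by -0.20 here, and both genes stayed lower. PSMB9 was not called without replicate 1 (0.267) or 3 (0.11), and NLRC5 was not called without replicate 1 (0.153), 2 (0.139) or 3 (0.149), by DESeq2 (0.0704) or when only the compared groups were fitted (0.167). After 24 h EGF + cetuximab, PSMB9 had a log2FC of -0.37 and NLRC5 of -0.21, not called in edgeR's fit (adjusted p = 0.202 and 0.104), and called with the block (0.0396 and 0.0236), where 18.6% of all genes were called without it.

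Cetuximab alone called 0 of the 6 genes in MKN1 cells at 4 h and 24 h in edgeR, in DESeq2 and with the block, none had an unadjusted p below 0.05, and 1.43% and 10.8% of all genes were called. The largest cetuximab value was that of CD274, with log2FC of -0.29 (SE 0.59) at 4 h and -0.28 (SE 0.60) at 24 h. EGF + cetuximab against EGF at 24 h called 0 of the 6 genes in the same tools, where 0.646% of all genes were called. In Hs746T cells, EGF, cetuximab and EGF + cetuximab gave 0 calls in 36 tests by edgeR, DESeq2 and the block, 0 had an unadjusted p below 0.05, and 0.0% of all genes were called in each comparison. The log2FC of these tests lay between -0.14 and 0.27. Trastuzumab gave 0 calls in 48 tests over the 4 lines by edgeR, DESeq2 and the block, with 1 at an unadjusted p below 0.05, and 0.0% of all genes were called in each comparison. That 1 test was CD274 in NCI-N87 cells at 24 h. It had 8.99, 9.06 and 7.80 CPM untreated and 6.85, 6.73 and 7.37 CPM after trastuzumab, without overlap (log2FC -0.32, SE 0.11, adjusted p = 1.0).

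Time in culture moved these genes by log2FC between -0.38 and 0.28. Untreated cells at 24 h against 4 h gave 0 calls in 24 tests of edgeR and of DESeq2, with 3 at an unadjusted p below 0.05, while 34.1% of all genes were called in MKN1 cells, 16.4% in MKN7 cells, and 0.267% and 1.48% in the lines NCI-N87 and Hs746T. NLRC5 in MKN1 cells was at 18.9, 15.6 and 15.3 CPM at 4 h and 21.2, 17.4 and 19.0 CPM at 24 h (log2FC 0.19, SE 0.09, adjusted p = 0.102; 0.0292 with the block). CD274 in MKN7 cells was at 53.8, 53.9 and 61.3 CPM at 4 h and 40.1, 33.4 and 59.6 CPM at 24 h (log2FC -0.38, SE 0.19, adjusted p = 0.19; 0.0341 with the block). CD274 in Hs746T cells was at 151, 96.2 and 95.1 CPM at 4 h and 126, 64.8 and 77.1 CPM at 24 h. Each same-numbered library was lower at 24 h, and CD274 was called there only with the block. The lowest correlation of same-numbered pairs in that comparison was 0.08.

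**Figure D5:**
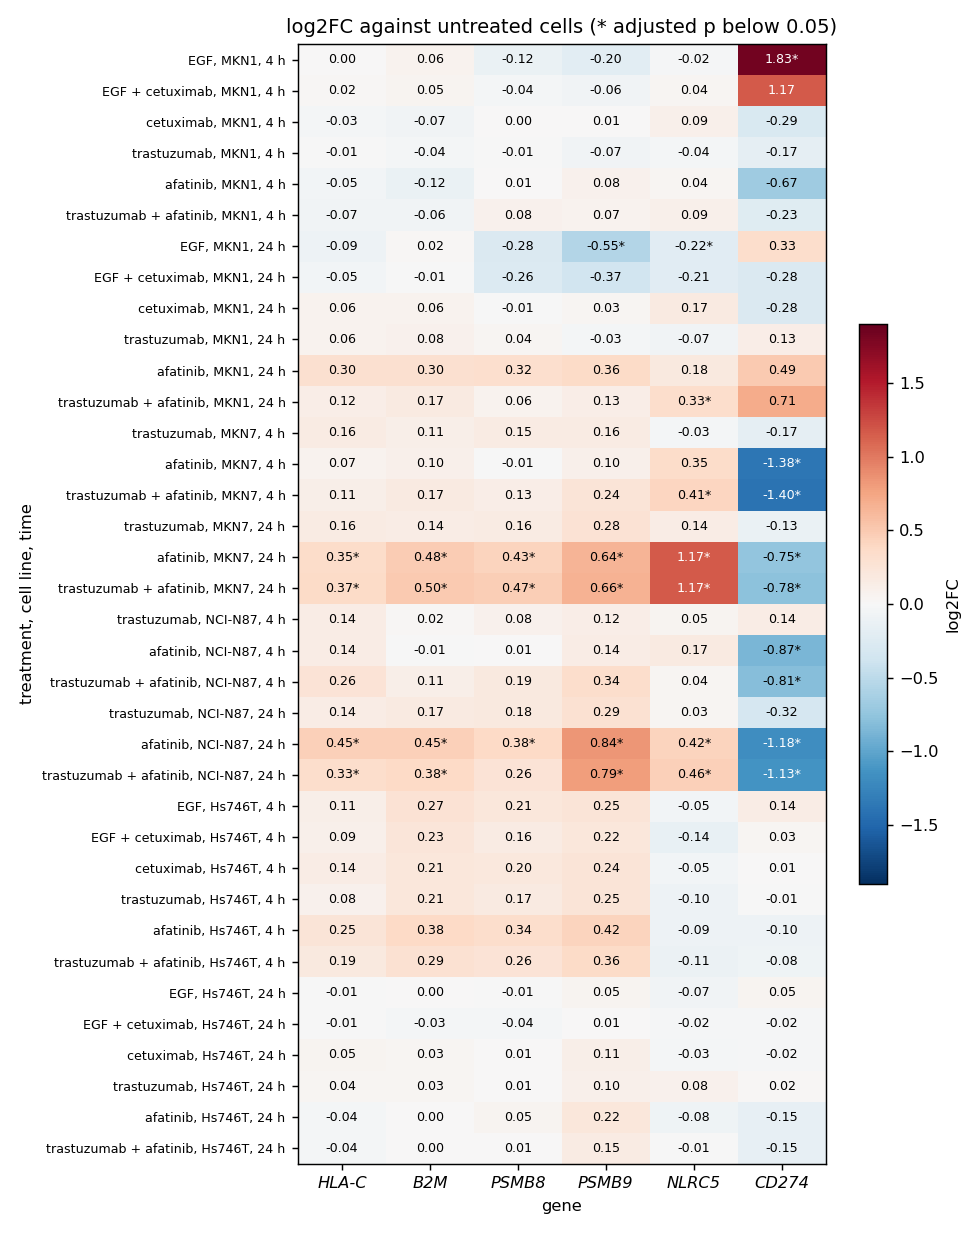
log2FC against untreated cells of the same line and time for 6 genes in 36 treatments (colour and number give the log2FC, an asterisk marks an adjusted p below 0.05). The marked cells lie in rows with afatinib in MKN7 and NCI-N87 cells and in 3 rows of MKN1 cells, from -1.40 for CD274 to 1.83 for CD274 after 4 h EGF, and rows of trastuzumab alone and of Hs746T cells have none.

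Other genes of the class I pathway were counted from a list of 12, of which ERAP2 was listed at 0 and 11 were tested. After 24 h afatinib, 6 were higher and 0 lower in MKN7 cells (median log2FC of the list 0.39), 6 higher and 3 lower in NCI-N87 cells (0.31) and 5 higher and 0 lower in MKN1 cells (0.30), beside medians of 0.04, 0.03 and 0.01 over all genes tested. Of all genes, 51.6% were called in MKN7, 62.5% in NCI-N87 and 25.6% in MKN1 cells, where 12.2% were higher and 13.3% lower. The share of the list called in either direction in MKN7 cells is thus near that of all genes. By direction, 26.6% of all genes were higher and 25.0% lower in MKN7 cells, and 31.5% and 31.0% in NCI-N87 cells. With the block, 7 were higher and 0 lower in MKN7 and 7 higher and 4 lower in NCI-N87 cells. The block also called more of all genes, 11144 of 18483 in MKN7 and 13472 of 19078 in NCI-N87 cells. PSMB10, the third inducible catalytic subunit of the immunoproteasome, rose from 8.53 to 16.5 CPM in MKN7 (log2FC 0.95, adjusted p = 0.000215), from 10.4 to 23.8 in NCI-N87 (1.16, adjusted p = 0.000131) and from 8.67 to 13.4 in MKN1 cells (0.60, adjusted p = 0.0107). TAPBPL, a peptide editor related to tapasin, rose by a log2FC of 0.70 in MKN7, 1.23 in NCI-N87 and 0.75 in MKN1 cells. HLA-E, a non-classical heavy chain read by NK cells, rose by 1.05 in NCI-N87 cells, and HLA-F by 0.95 in MKN7 and 0.49 in MKN1 cells. The chaperone CALR moved in opposite directions, up by 0.59 in MKN7 cells (adjusted p = 2.87e-05) and down in NCI-N87 cells from 904 to 500 CPM (log2FC -0.89, adjusted p = 2.3e-06). The 3 constitutive catalytic subunits went down where they were called. In NCI-N87 cells PSMB5, PSMB6 and PSMB7 had log2FC of -0.67, -0.73 and -0.45, and in MKN7 cells PSMB5 had -0.55 and PSMB7 -0.29. In MKN1 cells 0 of 3 were called, with log2FC of -0.2, -0.3 and -0.25. After 24 h trastuzumab + afatinib in MKN1 cells, all 3 were called lower, where 26.8% of all genes were called. Their log2FC were -0.41 (adjusted p = 0.0396), -0.59 (0.0172) and -0.46 (0.0446). PSMB6 in MKN7 cells, at -0.41, was not called (adjusted p = 0.0693) but was called with the block (-0.40, adjusted p = 0.000151). At 4 h, 0 of the 11 class I genes and 0 of the 3 constitutive subunits were called after afatinib in MKN1, MKN7 and NCI-N87 cells, where 3.68%, 22.2% and 18.2% of all genes were called. With the block, HLA-F was called in MKN7 (0.36, adjusted p = 0.024) and PDIA3, which helps to load peptides, in NCI-N87 cells (-0.24, adjusted p = 0.035).

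After 24 h EGF in MKN1 cells, 3 of the 11 were higher and 4 lower (5 lower with the block), where 35.8% of all genes were called, 17.3% higher and 18.5% lower. The block called 9802 of 19815 genes there. TAPBPL fell by 0.79, PSMB10 by 0.65, HLA-F by 0.59 and ERAP1, which trims peptides, by 0.40 on the log2 scale. Of the 3 constitutive subunits, 1 was called higher and 0 lower. This was PSMB7 (log2FC 0.44, adjusted p = 0.045; 0.00039 with the block), with overlapping groups. PSMB5 had a log2FC of 0.37 (adjusted p = 0.0508; 0.000173 with the block). PSMB6, at 0.24, was not called (adjusted p = 0.332).

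Of 17 regulators of these genes, IRF9 and SOCS1 were listed at 0 and 15 were tested. STAT2, a transcription factor of type I interferon signaling, rose after 24 h afatinib from 39.9 to 88.4 CPM in MKN7 (log2FC 1.14, SE 0.10, adjusted p = 1.05e-08), from 46.9 to 174 in NCI-N87 (1.86, SE 0.14, adjusted p = 2.25e-10) and from 46.2 to 64.7 in MKN1 cells (0.47, SE 0.11, adjusted p = 0.00208). It fell in MKN1 cells after 24 h EGF (-0.71, adjusted p = 9.57e-06). STAT2 was also higher at 4 h of afatinib in MKN7 (0.58) and NCI-N87 cells (0.70). RFX5, a subunit of the complex through which NLRC5 acts on class I promoters, rose in NCI-N87 cells from 36.7 to 115 CPM (1.61, adjusted p = 4.88e-11). In MKN7 cells it was not called (-0.19, adjusted p = 0.181). IRF1, an interferon-induced activator of class I genes and of CD274, rose in NCI-N87 cells (0.78, adjusted p = 0.000566) and was not called in MKN7 cells (0.15, adjusted p = 0.26). NFKB1 fell in MKN7 cells (-0.70) and the receptor subunit IFNGR1 in NCI-N87 cells (-0.48). SOCS3, an inhibitor of JAK and STAT signaling, fell in MKN7 cells at 4 h from 22.5 to 9.65 CPM (-1.26, adjusted p = 4.56e-07). In all, 3 regulators were higher and 6 lower at 24 h of afatinib in MKN7, 5 and 4 in NCI-N87, and 1 and 1 in MKN1 cells, beside 51.6%, 62.5% and 25.6% of all genes called. In MKN7 and NCI-N87 cells this is close to the share of all genes. With the block, 4 were higher and 6 lower in MKN7 and 6 higher and 6 lower in NCI-N87 cells, beside 11144 of 18483 and 13472 of 19078 of all genes.

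Among 8 other checkpoint ligands and partners of PD-L1, PVR was listed at 0 and 7 were tested. After 24 h afatinib, 2 were higher and 4 lower in each of the lines MKN7 and NCI-N87, and 0 were higher and 1 lower in MKN1 cells, and of all genes 51.6%, 62.5% and 25.6% were called in MKN7, NCI-N87 and MKN1 cells. VTCN1 (B7-H4), another inhibitory ligand, rose in MKN7 cells from 1.38 to 8.56 CPM (log2FC 2.62, SE 0.42, adjusted p = 2.38e-05) and in NCI-N87 cells from 8.05 to 51.2 CPM (2.64, SE 0.28, adjusted p = 5.69e-08). CMTM4, which stabilizes PD-L1 protein, fell by 0.42 in MKN7 and 0.71 in NCI-N87 cells on the log2 scale, and CD276 (B7-H3) by 0.41 and 0.67. LGALS9 went up in MKN7 (0.80) and down in NCI-N87 cells (-0.75). PDCD1LG2, the gene of PD-L2 next to CD274 on chromosome 9, is outside the naming rule in NCI-N87 cells because of its low level and was chosen after its values were seen. It fell with CD274 in MKN7 cells at 4 h (13.1 to 8.5 CPM, log2FC -0.66, adjusted p = 0.000287), was at 0.06 in MKN7 cells at 24 h, and in NCI-N87 cells at 24 h rose from 0.188 to 1.04 CPM (log2FC 2.40, SE 0.48, adjusted p = 0.000165). Of 8 class II genes, 5 were higher in MKN1, 2 of 8 in MKN7 and 2 of 6 tested in NCI-N87 cells when afatinib was given for 24 h, where 12.2%, 26.6% and 31.5% of all genes were higher. The shares in MKN7 and NCI-N87 cells are near those of all genes. With the block, 5 class II genes were higher and 1 lower in MKN7 cells, beside 11144 of 18483 genes called in either direction. HLA-DRA, a class II chain, rose in MKN1 cells from 5.31 to 11.5 CPM (1.09, adjusted p = 4.9e-06) and HLA-DMA, which helps to load class II peptides, in NCI-N87 cells from 1.88 to 3.73 CPM (0.95, adjusted p = 0.000743). After 24 h EGF, 0 class II genes were higher and 5 lower in MKN1 cells, where 17.3% of all genes were higher and 18.5% lower. In Hs746T cells, untreated levels of the class II transactivator CIITA (mean of 13.1 CPM) and of HLA-DRA (45.9) were above those of the other lines, without overlap.

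Over the 44 conditions, after each line's mean was subtracted, HLA-C and B2M varied together (Pearson's r of mean log2 CPM of 0.913), as did PSMB8 and PSMB9 (0.879). NLRC5 had r between 0.702 and 0.73 with HLA-C, B2M, PSMB8 and PSMB9. CD274 had negative r with all 5, from -0.077 with B2M to -0.487 with PSMB9. These values describe means of conditions that share replicate numbers and, within a line, the subtracted mean, and they carry no test. Among 9886 genes with a mean log2 CPM above 1 in every line, those most like CD274 were the cell cycle inhibitor CDKN1A (r = 0.885), the TRAIL receptor TNFRSF10B (0.832) and SBNO2 (0.826). PSMB9 was most like SUMF1 (0.961), UBA7 (0.946), the activating enzyme of ISG15, and LHPP (0.935). PSMB8 was most like ANAPC16 (0.931), ECH1 (0.927) and MSRB2 (0.925), and NLRC5 like CTTNBP2NL (0.926), CDKN2B-AS1 (0.926) and BRWD1 (0.921). HLA-C was most like B2M, VPS28 (0.898) and ATP6AP2 (0.897), and VPS28 (0.893) was also among the 3 genes most like B2M.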

How the data were processed

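Polyadenylated RNA was sequenced from directional libraries made of total RNA. The deposited files hold raw read counts per Ensembl gene identifier, 1 file per sample, and the authors pooled no replicates. The submitters' processing notes name Trim Galore, STAR and hg38, and the counting tool, its strand setting and the annotation are not given in the sources used here. Symbols, positions and exon lengths were taken from GENCODE release 29, which held 56813 of the 65217 identifiers. Groups, doses and times followed the labels. Library totals lay between 25832557 and 69434151, with a median of 50725775, so that 3 counts equal 0.0432 CPM in the deepest and 0.116 CPM in the shallowest library, for counting error only. No pair of replicates was identical (lowest ratio of their spread to the Poisson expectation 6.35).

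Counts were tested with edgeR 4.0.16 in R 4.3.3 (filterByExpr at its minimum count of 10, TMM, quasi-likelihood test, Benjamini-Hochberg adjustment over all genes of the fit). One fit per line held all its conditions (18483 genes for MKN7, 18667 for Hs746T, 19078 for NCI-N87, 19815 for MKN1), and 1 fit of all lines (22832 genes) gave the differences between lines and the interaction terms. A gene was called at an adjusted p below 0.05. CPM in the text carry no prior count, and log2 values for likeness used a prior count of 2. The fits were tested on simulated counts with 200 changed genes. Alternatives were DESeq2 1.42.0, the replicate number as a block, fits of only the compared groups, scaling by library size alone, a stricter filter (10 or more counts in every library) or none, and fits with 1 replicate left out. Replicate numbers come from the labels. In 39 of 44 comparisons within lines the deviations of all 3 same-numbered pairs correlated above 0.1 (median r of 0.25, from 0.05 to 0.59), and blocked values are printed there where they change the call of a gene whose values the text gives, or the count of a list.

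The genes and lists were chosen with earlier results of these data known. Genes of the other lists are named where they had the largest absolute log2FC among those called with a mean log2 CPM above 1, at most 4 per list and comparison, and further genes of the lists that are named beside them, RFX5, IRF1 and STAT2 where not called among them, were chosen after their values were seen. Figures were drawn with matplotlib 3.10.9.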

Additional observations from a re-analysis of the deposited data

Results flagged for a closer look

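A closer look is warranted by 6 results in which the effect of afatinib at 24 h differed between lines by the interaction test of edgeR's fit over all lines. NLRC5 appears in 4 of them. Its log2FC was 1.17 in MKN7 cells, and the difference was -0.98 for MKN1 minus MKN7 cells, 0.73 for MKN7 minus NCI-N87 cells, 1.25 for MKN7 minus Hs746T cells and 0.52 for NCI-N87 minus Hs746T cells. For CD274 the difference was 1.68 for MKN1 minus NCI-N87 cells (log2FC of 0.49 and -1.18), where CD274 of MKN1 cells rests on 22 to 78 counts per library. For HLA-C the difference was 0.52 for NCI-N87 minus Hs746T cells (log2FC of 0.45 and -0.04). In Hs746T cells 0.0% of all genes were called after afatinib.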

How the results depend on the processing

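None of the called values of the 6 genes changed direction under the alternatives run. Within lines, 32 called values kept their call under library size alone, the replicate block and at least 10 counts in every library, 31 of 32 under DESeq2 and without a filter, and 28 of 32 with only the compared groups. Leaving out replicates 1, 2 or 3 left 22, 24 and 17 of the 32 called. Between lines, 37 values kept their call under library size alone and the block, 36 under DESeq2, no filter and at least 10 counts, 35 with only the compared groups, and 33, 33 and 32 without replicates 1, 2 and 3. Why calls were lost was not tested beyond the smaller number of libraries. After 24 h afatinib, the 6 genes called in MKN7 and in NCI-N87 cells became 3 to 5 in each when a replicate was left out. For afatinib in MKN1 cells at 24 h, 0 genes became 4 with library size alone, 5 with the replicate block and 0 to 3 without a replicate. For afatinib in MKN7 cells at 4 h, 1 gene became 2 with only the compared groups, library size alone, no filter or the replicate block, and in NCI-N87 cells at 4 h, 1 became 2 with the replicate block. Of all genes, the block called 6198 of 18483 in MKN7 and 5578 of 19078 in NCI-N87 cells at 4 h. For EGF in MKN1 cells, 1 gene at 4 h became 0 to 1 without a replicate, and 2 genes at 24 h became 1 with DESeq2, 0 with only the compared groups, 4 with library size alone, 1 with no filter and 0 to 2 without a replicate. For untreated cells at 24 h against 4 h, 0 of 24 tests became 2 with library size alone, 3 with the replicate block and 0 to 1 without a replicate. For the interaction terms, 2 tests past an absolute size of 1 became 4 with only the compared groups, 4 with the replicate block and 1 to 3 without a replicate, and at any size 6 tests became 12 with the replicate block. Of all 22832 genes, the block called 4774 for MKN1 and MKN7, 9437 for MKN1 and NCI-N87, and 3874 for MKN1 and Hs746T cells. It called 7940 for MKN7 and NCI-N87, 7373 for MKN7 and Hs746T, and 10436 for NCI-N87 and Hs746T cells. The replicate numbers did not pair the libraries in 5 comparisons. With the block there, CD274 of untreated Hs746T cells at 24 h against 4 h had an adjusted p of 0.000753 and PSMB8 in NCI-N87 cells after 24 h trastuzumab + afatinib one of 0.0274. For afatinib in MKN1 cells at 24 h, also not paired, the block called 6 class I accessory genes higher in place of 5, 3 constitutive subunits lower in place of 0, 4 regulators higher and 2 lower in place of 1 and 1, 1 checkpoint ligand higher and 2 lower in place of 0 and 1, and 7 class II genes higher in place of 5. Of all 19815 genes, it called 7998 there in place of 5068. The block changed no call of the 6 genes other than those given here and in the text. Depth limits CD274 in MKN1 cells, where libraries held as few as 15 counts.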
